A study of Mus musculus with 6 samples.

Results

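Txnip, Arrdc4, Sord, Gfpt1, Gfpt2, Gnpnat1, Pgm3, Uap1, Ogt and Glo1 are genes of the side routes that glucose takes when it is not burned in glycolysis, or of the response that senses it. They were chosen by name from the deposited count table, where 9 of the 10 have a row among 21719 genes, and the level of Gfpt2 was not analysed here. All 9 passed the filter on low counts. RNA was sequenced in 6 libraries of MPC5, a mouse podocyte line immortalised under conditional control. The comparison is of 3 libraries labelled Setdb2KO, in high glucose, with 3 labelled Setdb2WT, also in high glucose, so every value below belongs to that medium. Setdb2 belongs to the SET-domain histone methyltransferases, and the study's title names Smad3 as a gene it silences. How the knockout was made, and whether it is a single clone, is not given in the sources used here.

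Podocytes of the diabetic glomerulus meet more glucose than glycolysis can use, and several branches draw on the excess. Sugar phosphates activate the transcription factor MondoA or its relative ChREBP, which with Mlx binds carbohydrate response elements and switches on Txnip and Arrdc4, alpha-arrestins that lower glucose uptake. Aldose reductase and sorbitol dehydrogenase turn glucose into sorbitol and then fructose, the polyol route. The hexosamine route turns fructose phosphate into UDP-GlcNAc, which the transferase Ogt attaches to serine and threonine of intracellular proteins and which glycan-building enzymes also use. Glo1 detoxifies methylglyoxal, a by-product of glycolysis that forms glycation adducts.

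Total counts were 36461449 to 36761970 reads in the libraries labelled Setdb2KO and 36767396 to 37129174 in those labelled Setdb2WT. The knockout label did not show in the targeted gene. Setdb2 had 17, 15 and 25 reads in the libraries labelled Setdb2KO, against 12, 10 and 9 in those labelled Setdb2WT, and did not pass the test (log2 fold change 0.73, adjusted p = 0.088, edgeR quasi-likelihood test; 0.88 and 0.043 under total-count scaling). Groups are therefore called by their labels. Nothing in the labels tells whether replicates were grown apart, so every p-value reflects the spread between these 6 samples, and that spread may be technical. Library 2 labelled Setdb2KO stood apart from its fellows, with chi-square values of 8.36 and 14.8, each divided by its degrees of freedom, against libraries 1 and 3. Those 2 differed from each other by 4.22, and pairs labelled Setdb2WT by 2.51 to 2.65.

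Of 6 podocyte markers measured, 5 were above 1 CPM (read counts scaled to a common library size with TMM factors) in every library, among them Synpo, Podxl, Cd2ap and Actn4, while Wt1 averaged 0.00869 CPM in the libraries labelled Setdb2KO and 0.0284 CPM in those labelled Setdb2WT. Nphs1 was not analysed here. The summed level of the podocyte markers was 1142 to 1244 CPM in the libraries labelled Setdb2KO and 1228 to 1234 CPM in those labelled Setdb2WT. Markers of mesangial cells (Pdgfrb, Itga8, Acta2) summed to 17.9 to 21.5 CPM in the libraries labelled Setdb2KO, against 51.5 to 55.2 CPM in those labelled Setdb2WT, with Itga8 near 0 in both groups. Those of tubule cells (Lrp2, Slc12a3) summed to 90.8 to 99.4 CPM (Setdb2KO) against 125 to 128 CPM (Setdb2WT), nearly all of it Lrp2, and Umod was not analysed here. Slc12a3 went the other way at a low level, 0.363 CPM (Setdb2KO) against 0.00958 CPM (Setdb2WT). Endothelial markers (Pecam1, Kdr, Cdh5) summed to 1.51 to 2.77 CPM (Setdb2KO) against 3.40 to 4.09 CPM (Setdb2WT), with Cdh5 near 0 in both groups. Most of that sum was Kdr, while Pecam1 was higher in the libraries labelled Setdb2KO, at 0.337 against 0.0761 CPM. Immune markers (Ptprc, Cd68) summed to 4.69 to 6.17 CPM (Setdb2KO) against 4.23 to 5.29 CPM (Setdb2WT), with Ptprc at 0 in the libraries labelled Setdb2KO and 0.133 CPM in those labelled Setdb2WT. Their part in the results below was not tested, and fewer cells of a type cannot be told apart from less RNA per cell.

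Across the genome the labels differed in most genes, and this sets the scale for what follows. Of the 9 tested members 5 rose and 3 fell in the libraries labelled Setdb2KO at an adjusted p under 0.05, and Gnpnat1 did not pass. Among all 13509 genes tested 83.8% passed, 41.5% higher and 42.3% lower, so being called does not set the members apart. Changes of at least 2-fold were found for 3 members, Sord and Txnip upward and Uap1 downward, where the share over all genes was 32.6%, 16.4% upward and 16.2% downward. Sord and Txnip also exceeded 3-fold, as did 9.25% of all genes tested. The groups did not overlap in 8 of the 9 members, against 84.6% of all genes tested. The median log2 fold change was 0.21 for the members and 0.0045 for all genes tested.

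**Figure D1:**
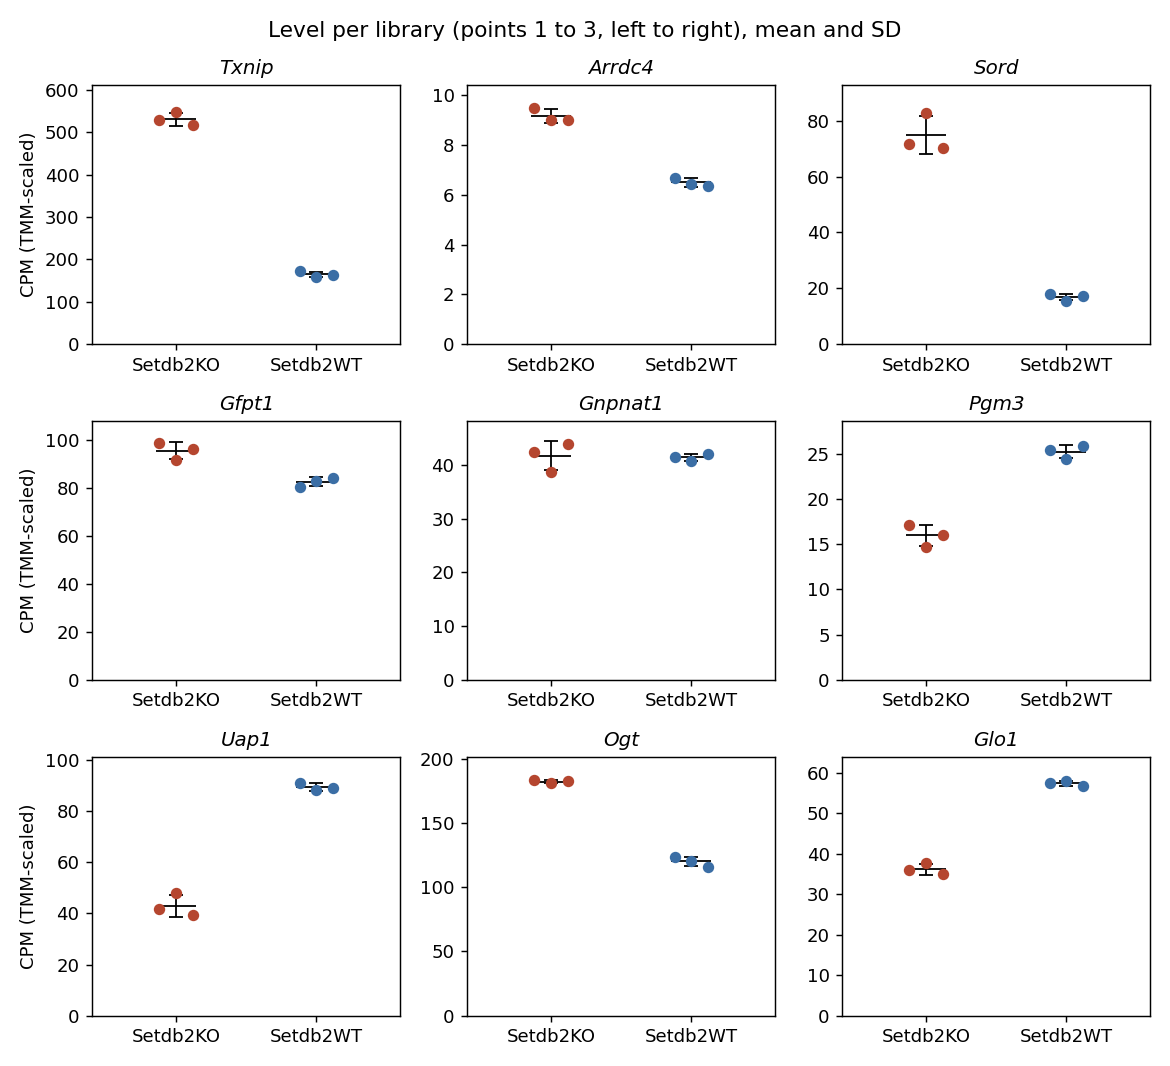
Level of each tested member in CPM, scaled by TMM factors, in the 3 libraries labelled Setdb2KO (red) and the 3 labelled Setdb2WT (blue), with the mean and SD in black. The groups lie apart in every panel except that of Gnpnat1, and Txnip and Sord show the widest gaps upward.

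The promoters of Txnip and Arrdc4, the alpha-arrestin members and the standard readouts of MondoA, are shown because both genes rose. These are the 250 bases before each start in RefSeq's GRCm38.p6 annotation, chr3:96557707-96557956 on the plus strand for Txnip and chr7:68749239-68749488 on the minus strand for Arrdc4, read 5′ to 3′. Capitals mark the match to the carbohydrate response element in Txnip and the E-box CACGTG in Arrdc4.
Txnip: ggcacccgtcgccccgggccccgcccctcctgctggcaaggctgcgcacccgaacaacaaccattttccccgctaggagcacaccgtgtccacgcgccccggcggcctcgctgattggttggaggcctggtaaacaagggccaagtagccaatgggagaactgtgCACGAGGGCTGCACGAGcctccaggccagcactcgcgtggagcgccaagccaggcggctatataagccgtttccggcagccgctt
Arrdc4: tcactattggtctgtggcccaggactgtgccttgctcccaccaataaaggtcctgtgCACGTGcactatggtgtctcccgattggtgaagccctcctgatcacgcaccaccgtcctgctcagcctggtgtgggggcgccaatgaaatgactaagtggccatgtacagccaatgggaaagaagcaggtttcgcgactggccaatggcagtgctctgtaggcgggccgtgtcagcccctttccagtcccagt

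The element was searched on both strands as 2 copies of CACGTG that are 5 bases apart, with at most 2 mismatches, in windows of 250 bases before to 50 after the start. The Txnip match starts at position -85, counted from -1 at the last base before the start, and 0.953% of 32851 windows hold such a match. Arrdc4 held none, but had an E-box at position -193, a hexamer found in 7.15% of windows. Of the 10 members 9 have such a window, Gfpt2 among them, and Gnpnat1 was not searched. None of the other 7 had either motif. Arrdc4 also had 6 and Txnip 2 matches to CCAAT, a pentamer in 37.4% of windows that was searched after the sequences had been seen and was in 7 of the 9 windows, that of Gfpt2 included. GGGCGG, the GC box, was in 8 of these 9 windows, all but that of Arrdc4, and in 35.7% of all windows. The amino acid response motif TGATGNAA, the cyclic AMP motif TGACGTCA and the extended E-box CCACGTGA, which contains CACGTG, were in 0 of the 9. A match describes the letters only.

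Txnip, which binds and inhibits thioredoxin and promotes the internalisation of glucose transporters, had the largest gain in CPM of the members. It measured 529, 547 and 516 CPM in the libraries labelled Setdb2KO, against 171, 159 and 163 CPM in those labelled Setdb2WT. All 3 libraries labelled Setdb2KO lay far above the others, with no overlap. The change was 3.22-fold (log2 fold change 1.69, SE 0.04; adjusted p = 1.8e-14). This placed Txnip at the 91.5th percentile of fold changes among all genes tested, and its level at the 96.5th percentile of mean CPM. The antisense gene Gm15441 shares 19.4% of its exon bases in GENCODE M21, and had 0.631 ± 0.11 CPM in the libraries labelled Setdb2KO and 0.191 ± 0.12 CPM in those labelled Setdb2WT.

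Arrdc4, a paralog of Txnip, rose much less. It measured 9.49, 9.01 and 8.99 CPM in the libraries labelled Setdb2KO, against 6.69, 6.44 and 6.35 CPM in those labelled Setdb2WT. Each library labelled Setdb2KO was above every library labelled Setdb2WT. The change was 1.41-fold (log2 fold change 0.50, SE 0.09; adjusted p = 1.6e-04). Per length, as CPM divided by the kilobases of the longest coding transcript, Arrdc4 stood at 2.35 ± 0.072 in the libraries labelled Setdb2KO and 1.66 ± 0.045 in those labelled Setdb2WT, and Txnip at 188 ± 5.4 (Setdb2KO) and 58.2 ± 2.2 (Setdb2WT; SD, n = 3 each). Arrdc4 made up 1.24% ± 0.052 of the length-scaled sum of both genes in the libraries labelled Setdb2KO and 2.78% ± 0.060 in those labelled Setdb2WT (exact two-sided permutation test p = 0.1, n = 3 each, the smallest p that 3 against 3 allows).

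Among the other genes of the glucose sensing list, 4 of 17 tested rose, 9 fell and 4 missed the threshold. Only 2 rose when library 2 labelled Setdb2WT was left out. Over all genes tested 41.5% were called higher and 42.3% lower. The median log2 fold change of these 17 was -0.40, against 0.0045 over all genes tested. The factors that act on Txnip and Arrdc4 moved little: Mlxip, which encodes MondoA, had 75.8 ± 3.0 CPM in the libraries labelled Setdb2KO and 80.5 ± 2.9 CPM in those labelled Setdb2WT (adjusted p = 0.067). Its partner Mlx rose to 29.2 ± 0.75 CPM, against 25.9 ± 1.1 CPM in the libraries labelled Setdb2WT (adjusted p = 0.011). ChREBP's gene Mlxipl was at 0 reads in the libraries labelled Setdb2KO and averaged 0.0095 CPM in the others, below the filter, as were Slc2a3, Slc2a4 and Pklr.

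Txn1, Txnrd1 and Slc2a1, genes of the thioredoxin and glucose uptake systems, fell, whereas Txn2, the mitochondrial thioredoxin, was called higher. Txn1, the thioredoxin it binds, measured 142, 162 and 156 CPM in the libraries labelled Setdb2KO, against 461, 442 and 447 CPM in those labelled Setdb2WT (log2 fold change -1.55, SE 0.04; adjusted p = 2.5e-13). Txnrd1, which reduces thioredoxin, fell to 192 ± 1.9 CPM, against 526 ± 8.1 CPM in the libraries labelled Setdb2WT (log2 fold change -1.45). Slc2a1, the glucose transporter that Txnip and Arrdc4 help to internalise, had 48.8, 51.5 and 48.7 CPM in the libraries labelled Setdb2KO, against 137, 142 and 138 CPM in those labelled Setdb2WT (log2 fold change -1.48, SE 0.04; adjusted p = 1.3e-13). In each of these 3 genes every library labelled Setdb2KO was below every library labelled Setdb2WT. Txn2 had 174 ± 5.6 CPM in the libraries labelled Setdb2KO and 163 ± 6.2 CPM in those labelled Setdb2WT, and its groups overlapped (SD, n = 3 each; log2 fold change 0.098, adjusted p = 0.025 by edgeR).

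Hk1 and Hk2, hexokinases that trap glucose in the cell, fell too. Hk1 had 72.0 ± 5.7 CPM in the libraries labelled Setdb2KO and 195 ± 1.9 CPM in those labelled Setdb2WT, and Hk2 had 8.53 ± 1.2 CPM in the libraries labelled Setdb2KO against 44.2 ± 0.95 CPM in those labelled Setdb2WT (SD, n = 3 each; log2 fold changes -1.44 and -2.37). Arrdc1, a relative of the arrestin members, fell as well, with 8.17 ± 0.43 CPM in the libraries labelled Setdb2KO against 18.2 ± 1.0 CPM in those labelled Setdb2WT (log2 fold change -1.16). Within the alpha-arrestins Arrdc3 fell by 0.40 on the log2 scale and Arrdc2 did not pass, at a log2 fold change of -0.096 (adjusted p = 0.27). Of the 5 listed alpha-arrestins, Txnip and Arrdc4 were called higher, beside 41.5% of all genes tested, so this count does not set them apart.

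Sord, sorbitol dehydrogenase, which makes fructose from sorbitol, had the largest fold change of the members. It measured 71.5, 82.6 and 70.2 CPM in the libraries labelled Setdb2KO, against 17.8, 15.5 and 17.4 CPM in those labelled Setdb2WT. The groups were far apart, and library 2 labelled Setdb2KO was 16.5% above the mean of the other 2. The change was 4.43-fold (log2 fold change 2.15, SE 0.07; adjusted p = 1.8e-12), and 2.07 to 2.30 on the log2 scale under every alternative. A processed pseudogene, Gm6652, matches 1070 bases of its transcript at 99.3% identity in GENCODE M21, so reads from the copies are uncertain.

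Upstream of Sord, aldose reductase rose in the same direction. Akr1b3, the mouse aldose reductase, measured 1494, 1596 and 1520 CPM in the libraries labelled Setdb2KO, against 588, 606 and 585 CPM in those labelled Setdb2WT, with no overlap. The change was 2.59-fold (log2 fold change 1.37, SE 0.03; adjusted p = 4.4e-14). Its copies include 3 processed pseudogenes with at least 99.1% identity, and the value is uncertain for that reason. The ratio of Sord to Akr1b3, per length, was 0.0287 ± 0.0017 in the libraries labelled Setdb2KO and 0.0168 ± 0.0015 in those labelled Setdb2WT (exact two-sided permutation test p = 0.1, n = 3 each, the smallest possible).

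The other genes of the polyol and fructose list moved in both directions, as did all genes tested, 41.5% higher and 42.3% lower. Of 8 tested polyol and fructose genes other than Sord, 2 rose, 3 fell and 3 missed the threshold, while Slc2a5 was below the filter. The second that rose was Akr1b7, at 0.337 ± 0.026 CPM in the libraries labelled Setdb2KO and 0.0758 ± 0.082 CPM in those labelled Setdb2WT, and a filter at 1 CPM removed it. Akr1b8 had 55.7 ± 1.6 CPM in the libraries labelled Setdb2KO and 56.5 ± 1.2 CPM in those labelled Setdb2WT (log2 fold change -0.021, adjusted p = 0.66), a value that turned to 0.13 and passed under total-count scaling. Akr1b10 had 10.4 ± 1.4 CPM in the libraries labelled Setdb2KO against 12.02 ± 0.67 CPM in those labelled Setdb2WT (adjusted p = 0.068), and passed at an adjusted p of 0.014 without library 1 labelled Setdb2KO. Akr1a1, an aldehyde reductase, fell to 340 ± 12 CPM, against 407 ± 3.4 CPM in the libraries labelled Setdb2WT (SD, n = 3 each).

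Khk and Tkfc, enzymes of fructose use, fell. Khk, ketohexokinase, had 5.17 ± 0.62 CPM in the libraries labelled Setdb2KO and 7.03 ± 0.76 CPM in those labelled Setdb2WT (log2 fold change -0.44, SE 0.12; adjusted p = 0.0046). Tkfc, which phosphorylates glyceraldehyde from fructose, fell by 1.05 on the log2 scale, with 10.5 ± 0.93 CPM in the libraries labelled Setdb2KO against 21.8 ± 1.1 CPM in those labelled Setdb2WT (SD, n = 3 each). Thus Akr1b3 and Sord were higher in the libraries labelled Setdb2KO, with values left uncertain by their copies, and Khk and Tkfc were lower. Over all genes tested 41.5% were called higher and 42.3% lower.

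**Figure D2:**
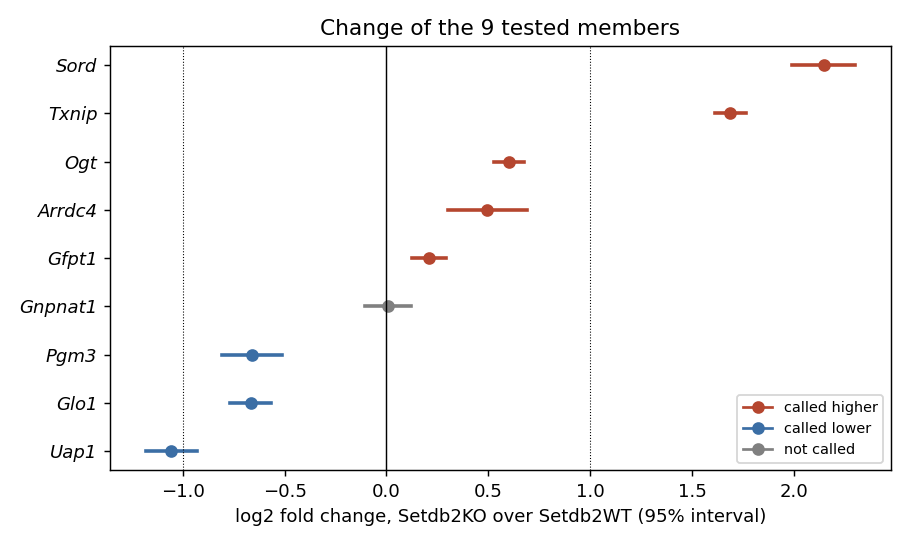
Log2 fold change of the 9 tested members, libraries labelled Setdb2KO over those labelled Setdb2WT, with the 95% interval of edgeR's fit; dotted lines mark 2-fold. Sord and Txnip lie beyond 2-fold upward, the interval of Gnpnat1 spans 0, and that of Uap1 spans the 2-fold line.

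In the hexosamine route Gfpt1, at the entry, rose slightly. Of the later enzymes Pgm3 and Uap1 fell, while Uap1l1, a relative of Uap1, rose. Gfpt1, the rate-limiting aminotransferase that starts the route, measured 98.8, 91.7 and 96.5 CPM in the libraries labelled Setdb2KO, against 80.7, 83.2 and 84.3 CPM in those labelled Setdb2WT. The groups did not overlap but were close, and the change was 1.16-fold (log2 fold change 0.21, SE 0.04; adjusted p = 1.8e-04). Gnpnat1, which acetylates glucosamine phosphate, had 42.5, 38.7 and 43.9 CPM in the libraries labelled Setdb2KO, against 41.5, 40.8 and 42.1 CPM in those labelled Setdb2WT. These values overlapped, and the log2 fold change was 0.0080 with a 95% interval of -0.11 to 0.12 (adjusted p = 0.89).

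Gnpnat1 passed upward under total-count scaling alone (log2 fold change 0.16, adjusted p = 0.012), where the median of all genes shifts by 0.15. Styx lies on the opposite strand and shares 81.9% of the exon bases of Gnpnat1 in GENCODE M21. Styx itself had 7.91 ± 2.0 CPM in the libraries labelled Setdb2KO and 12.3 ± 1.1 CPM in those labelled Setdb2WT. A near-copy of Gnpnat1, Gm14698, also matches 552 bases at 99.8% identity. Since the strand setting of the counting is not given, reads in that overlap cannot be told apart.

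Pgm3, which moves the phosphate to the first carbon of N-acetylglucosamine phosphate, fell. It measured 17.1, 14.7 and 16.1 CPM in the libraries labelled Setdb2KO, against 25.4, 24.4 and 25.8 CPM in those labelled Setdb2WT. Every library labelled Setdb2KO was below every other, by -0.66 on the log2 scale (SE 0.07; adjusted p = 5.3e-07). Its exons share 28.3% of their bases with Dop1a on the opposite strand, which was higher, at 36.97 ± 2.0 CPM in the libraries labelled Setdb2KO against 31.7 ± 1.1 CPM in those labelled Setdb2WT.

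Uap1, the pyrophosphorylase that completes UDP-GlcNAc, fell most among the members. It measured 41.7, 47.8 and 39.5 CPM in the libraries labelled Setdb2KO, against 91.2, 88.2 and 89.0 CPM in those labelled Setdb2WT. The groups were well apart, though library 2 labelled Setdb2KO was 17.8% above the mean of the other 2 of its group. It changed by -1.06 on the log2 scale (SE 0.06; adjusted p = 4.4e-10), with a 95% interval of -1.18 to -0.93 that includes a 2-fold fall. It was -0.90 under total-count scaling and -0.999 without library 3 labelled Setdb2KO, and so just short of 2-fold in both.

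Its relative Uap1l1 moved the opposite way. Uap1l1 measured 94.1, 95.9 and 93.5 CPM in the libraries labelled Setdb2KO, against 42.8, 43.9 and 41.7 CPM in those labelled Setdb2WT, a 2.21-fold rise (log2 fold change 1.14, SE 0.04; adjusted p = 2.4e-12). Of the length-scaled sum of both genes, Uap1l1 made up 60.9%, 58.1% and 62.0% in the libraries labelled Setdb2KO and 24.5%, 25.6% and 24.4% in those labelled Setdb2WT. The order of the relatives thus turned: Uap1l1 was above Uap1 per length in each library labelled Setdb2KO and below it in each library labelled Setdb2WT. The difference of 35.5 percentage points had an exact two-sided permutation p = 0.1 (n = 3 each), the smallest possible.

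Ratios between single members of the route differed too. They leave out Uap1l1, whose activity in the route was not tested here, and do not give the balance of whole steps. Per length, Uap1l1 stood at 28.2 (Setdb2KO) and 12.8 (Setdb2WT), and Uap1 at 18.6 (Setdb2KO) and 38.7 (Setdb2WT). A ratio of Gfpt1 to the sum of Uap1 and Uap1l1 was not computed. The ratio of Gfpt1 to Uap1, per length, was 0.878, 0.711 and 0.905 in the libraries labelled Setdb2KO and 0.328, 0.350 and 0.351 in those labelled Setdb2WT. Gfpt1 to Pgm3 was 2.57 ± 0.098 in the libraries labelled Setdb2KO and 1.40 ± 0.051 in those labelled Setdb2WT (SD, n = 3 each). Each of the 6 ratios and shares computed here reached an exact permutation p = 0.1 with no overlap, and none can go lower; Benjamini-Hochberg adjustment leaves them unchanged.

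**Figure D3:**
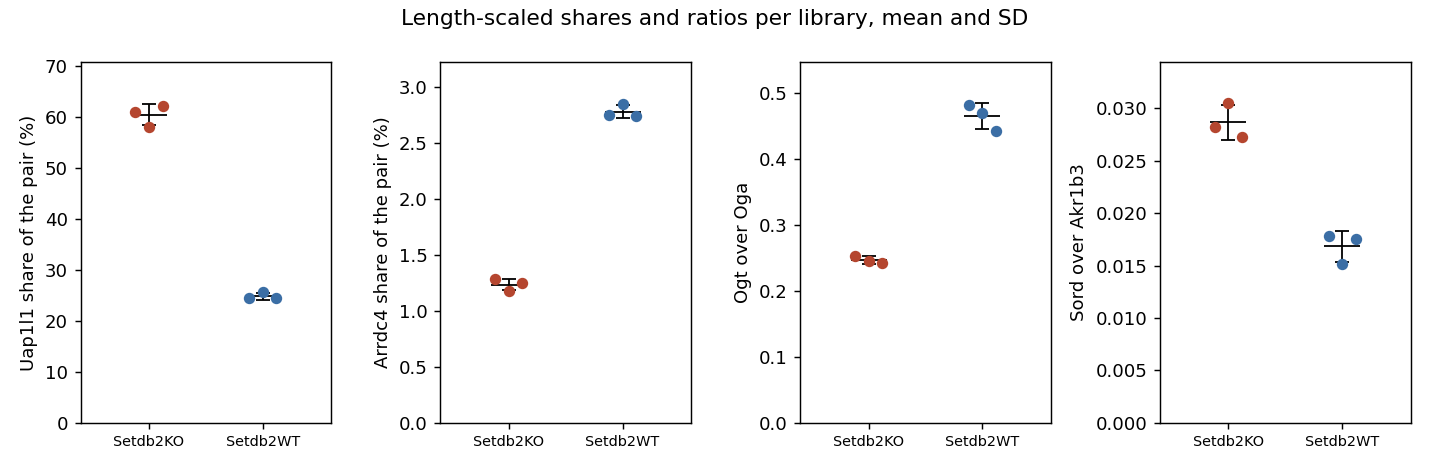
Shares and ratios of length-scaled levels in each of the 3 libraries labelled Setdb2KO (red) and Setdb2WT (blue), with mean and SD. Uap1l1 made up 58.1% to 62.0% of the Uap1 pair in libraries labelled Setdb2KO and 24.4% to 25.6% in those labelled Setdb2WT. Ogt over Oga was 0.243 to 0.253 (Setdb2KO) against 0.443 to 0.482 (Setdb2WT).

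Genes that return or branch off hexosamines were mixed. Of 12 tested genes of synthesis and salvage outside the members 6 rose, 5 fell and 1 did not pass. The shares over all genes tested were 41.5% higher and 42.3% lower. Gnpda1, the deaminase that runs the Gfpt1 step backward to fructose phosphate, measured 50.7, 52.7 and 54.2 CPM in the libraries labelled Setdb2KO, against 9.53, 11.7 and 10.4 CPM in those labelled Setdb2WT. This was a 4.99-fold rise with no overlap (log2 fold change 2.32, SE 0.07; adjusted p = 6.0e-13). A processed pseudogene, Gm8615, is 99.1% identical over 753 bases, which leaves that value uncertain. Renbp, an N-acetylglucosamine epimerase, rose to 149 ± 5.8 CPM, against 40.5 ± 2.0 CPM in the libraries labelled Setdb2WT (log2 fold change 1.87).

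Both enzymes named from the sialic acid branch fell. Gne, which opens sialic acid synthesis from UDP-GlcNAc, fell by 0.86 and Nans, sialic acid synthase, by 0.76 on the log2 scale. Gne had 7.18 ± 0.45 CPM in the libraries labelled Setdb2KO and 13.0 ± 0.075 CPM in those labelled Setdb2WT, and Nans had 76.3 ± 4.0 CPM in the libraries labelled Setdb2KO against 129 ± 4.1 CPM in those labelled Setdb2WT (SD, n = 3 each).

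Ogt, the transferase that places O-GlcNAc on proteins, rose. It measured 183, 181 and 183 CPM in the libraries labelled Setdb2KO, against 124, 121 and 116 CPM in those labelled Setdb2WT. The libraries labelled Setdb2KO were close to each other and all above the others. The change was 1.52-fold (log2 fold change 0.60, SE 0.03; adjusted p = 5.3e-10).

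Oga, the hydrolase that removes O-GlcNAc, rose more. It measured 681, 694 and 706 CPM in the libraries labelled Setdb2KO, against 241, 241 and 246 CPM in those labelled Setdb2WT, a 2.86-fold change (log2 fold change 1.52, SE 0.03; adjusted p = 8.0e-15). Both genes thus rose without overlap between the groups. Per length, Ogt over Oga was 0.247 ± 0.0055 in the libraries labelled Setdb2KO and 0.465 ± 0.020 in those labelled Setdb2WT (exact two-sided permutation test p = 0.1, n = 3 each, the smallest possible). In both groups Oga was the higher of the pair per length.

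The list of O-GlcNAc genes and users of UDP-GlcNAc held changes both ways. Of its 17 tested genes other than Ogt, among them Oga and the Ogt substrate Hcfc1, 5 rose, 10 fell and 2 missed the threshold, beside 41.5% higher and 42.3% lower over all genes tested, and the list's median was -0.24 on the log2 scale. The number that rose was 3 without library 3 labelled Setdb2WT. Has2 was below the filter and Has1 was not analysed here. Mgat2 and Mgat5, which branch N-glycans, fell by 1.27 and 1.06 on the log2 scale, and Ext1, which polymerises heparan sulfate, by 0.95. Mgat2 had 39.99 ± 5.0 CPM in the libraries labelled Setdb2KO and 96.6 ± 1.6 CPM in those labelled Setdb2WT. Gcnt2, a branching enzyme of poly-N-acetyllactosamine, fell by 1.40, whereas Mgat4b, another N-glycan branching enzyme, rose 1.36-fold, with 96.3 ± 3.1 CPM in the libraries labelled Setdb2KO against 71.0 ± 2.4 CPM in those labelled Setdb2WT (SD, n = 3 each).

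**Figure D4:**
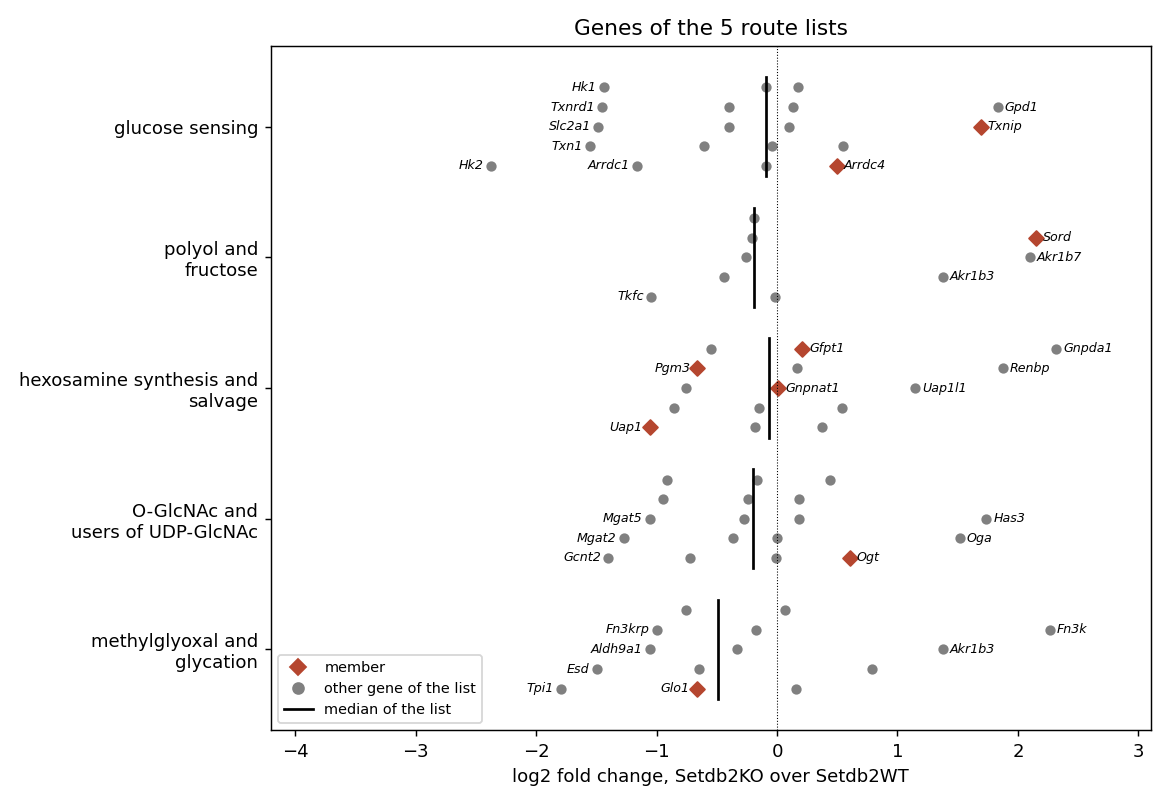
Log2 fold change (libraries labelled Setdb2KO over Setdb2WT) of the tested genes in the 5 route lists, except 1 that counts in its list's median but is not drawn, with members as red diamonds, other genes as grey dots and the median of each list as a bar; names are given for members and for genes at or beyond 2-fold. List medians lie between -0.49 and -0.071, while the genes drawn run from Hk2 at -2.37 to Gnpda1 at 2.32.

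Glo1, glyoxalase I, fell. It measured 35.9, 37.7 and 34.9 CPM in the libraries labelled Setdb2KO, against 57.4, 58.1 and 56.7 CPM in those labelled Setdb2WT. The groups lay well apart, at a log2 fold change of -0.67 (SE 0.05; adjusted p = 5.6e-09). A processed pseudogene, Gm13443, matches 555 bases at 99.5% identity, so its reads are uncertain.

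Of 13 tested genes of methylglyoxal handling and glycation outside the members 3 rose, 8 fell and 2 missed the threshold, and the median was -0.33 on the log2 scale. Total-count scaling gave 5 higher and 7 lower. With TMM scaling 41.5% of all genes tested were called higher and 42.3% lower. Akr1b3 stands in this list too, and Aldh3a1 was below the filter. Hagh, glyoxalase II, which acts after Glo1, had 43.6 ± 2.1 CPM in the libraries labelled Setdb2KO and 49.1 ± 0.68 CPM in those labelled Setdb2WT (log2 fold change -0.17, adjusted p = 0.0041). Tpi1, the isomerase that removes the triose phosphates from which methylglyoxal forms, measured 228, 238 and 215 CPM in the libraries labelled Setdb2KO, against 792, 761 and 807 CPM in those labelled Setdb2WT (log2 fold change -1.79, SE 0.04; adjusted p = 2.3e-14). Park7, a protein linked to repair of glycated molecules, fell by 0.76 on the log2 scale. Aldh9a1, an aldehyde dehydrogenase, fell by 1.05. Esd, which clears formaldehyde adducts of glutathione and has 9 pseudogene copies by the same rule, fell by 1.497.

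Ager and Lgals3, whose proteins bind glycation products, did not move together. Ddost, of the same list, was called lower (log2 fold change -0.65, adjusted p = 2.6e-10 by edgeR). Prkcsh, also of that list, did not pass, at a log2 fold change of 0.068 (adjusted p = 0.0505 by edgeR). Ager, the receptor RAGE, had 5.59 ± 0.57 CPM in the libraries labelled Setdb2KO and 5.00 ± 0.43 CPM in those labelled Setdb2WT and did not pass (adjusted p = 0.24, log2 interval -0.11 to 0.43). Lgals3, galectin-3, which binds glycated proteins, rose 1.73-fold to 493 ± 14 CPM, against 285 ± 3.9 CPM in the libraries labelled Setdb2WT (SD, n = 3 each; adjusted p = 9.1e-12).

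Spread within the groups was small beside most of these changes. The coefficient of variation was 0.637% to 10.03% for the 9 members in the libraries labelled Setdb2KO and 1.22% to 7.11% in those labelled Setdb2WT. It was larger in the libraries labelled Setdb2KO for 7 of the 9. Library 2 labelled Setdb2KO was the one farthest from the other 2 of its group for 8 of the 9, from 11.2% below the mean of the other 2 for Pgm3 to 17.8% above for Uap1. Without it the same numbers of members were called, 5 higher and 3 lower.

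Against a limit of 1.5-fold in place of no change, glmTreat called 2 members higher, Txnip and Sord, and 2 lower, Uap1 (adjusted p = 5.3e-07) and Glo1 (adjusted p = 0.031), against 45.4% of all genes tested, 22.3% higher and 23.1% lower. Arrdc4 (adjusted p = 0.96), Gfpt1 (adjusted p = 1), Ogt (adjusted p = 0.25) and Pgm3 (adjusted p = 0.10) were not called against that limit. The estimates for Ogt, 1.52-fold higher, and Pgm3, 1.58-fold lower, lay slightly beyond 1.5-fold.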

How the data were processed

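The authors deposited raw read counts per gene for each of the 6 libraries, unpooled. TRIzol extraction and the VAHTS Universal V6 library kit are named per the labels' protocols. The submitters' processing notes name fastp, HISAT, HTSeq and the GRCm39 build. Their versions, the annotation and the strand setting were not given in the sources used here. Every value column was matched to a sample by genotype and number, with 0 left over.

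These counts went into a quasi-likelihood F test in edgeR 4.0.16 under R 4.3.3, with TMM scaling, genotype alone in the model, filterByExpr (minimum count 10) as the filter, and p-values adjusted by Benjamini-Hochberg across the 13509 genes that passed. CPM values are TMM-scaled, with the SD over 3 libraries. The scripts were tested on simulated data. Alternatives were scaling by DESeq2 size factors, upper quartile or total counts, the DESeq2 1.42.0 Wald test, limma-voom (limma 3.58.1), glmTreat at 1.5-fold, no filter, a floor of 1 CPM in 3 libraries, a block on replicate number, and each library left out.

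Members and lists were chosen with earlier results of these data known. All members are named and, from each list, up to 6 genes of smallest adjusted p with a mean CPM of at least 1. Mlx, Mlxip, Arrdc2, Arrdc3, Txn2, Akr1b7, Hcfc1, Hagh, Ager, Ddost, Prkcsh and the overlapping genes were added after their values were seen. So were the ratios other than the Txnip and Uap1 pairs. The planned share of Gfpt2 in its pair with Gfpt1 was not computed. Transcript lengths, exon overlaps and copies (blastn 2.17.0, at least 95% identity over 500 bases) came from GENCODE M21 on GRCm38. Promoters came from RefSeq on GRCm38.p6, where 9 of the 10 members matched. Both builds differ from the authors' GRCm39. A few listed genes are not reported here by name, though they count in the totals, sums and medians of their lists.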

Additional observations from a re-analysis of the deposited data

How the results depend on the processing

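The counts of genes and members called, and of all listed genes together, stayed within 1.5 times their values under every alternative but glmTreat. Single lists moved further, with 5 methylglyoxal genes higher in place of 3 under total-count scaling and 1 polyol gene higher in place of 2 under the 1 CPM filter. Against 1.5-fold glmTreat called 6137 genes in place of 11318, 2 members higher in place of 5, and 10 listed genes outside the members higher and 22 lower in place of 19 and 35. Akr1b8 turned from -0.021 to 0.13 under total-count scaling, because that scaling shifts the median of all genes by 0.15. It also raised the share of called genes that were higher to 57.5%, with 6550 higher and 4833 lower, against 49.5%, with 5607 higher and 5711 lower. Leaving out 1 library at a time gave 11067 to 11496 genes called, 5 members higher and 3 lower each time, 2 or 3 members at 2-fold, and 15 to 20 listed genes higher and 34 to 36 lower. The Uap1l1 share then differed by 34.7 to 36.7 percentage points and the Arrdc4 share by -1.57 to -1.51, and by 36.4 and -2.10 on raw counts without length. With the replicate number as a block 11190 genes, 5 members higher and 3 lower were called. Deviations of same-numbered libraries from their group means correlated at -0.037 to 0.00086, and those of differently numbered libraries at -0.035 to 0.041. No sign of pairing by number was seen, but correlations this near 0 do not settle whether samples were paired. Arrdc4, with 221 to 367 reads per library, had the widest interval of the members.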
